A study of Mus musculus with 12 samples.

Results

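Genes of the blood vessel wall and its growth factors were followed across 12 mouse mammary tumors. They are the 7 endothelial genes Pecam1, Cdh5, Kdr, Tek, Eng, Vwf and Cd34 and the VEGF ligands Vegfa and Vegfc, taken by symbol from a table of 750 genes, in which all 9 were present. All 9 also passed a filter on low values that kept 689 genes. The tumors carried K14-Cre;Brca1f/f;Trp53f/f, a genotype whose keratin 14 promoter drives Cre and so removes Brca1 and Trp53 from epithelial cells. Tumor pieces were grown in the mammary fat pad of FVB/129P2 females, a syngeneic host, so vessels of the host as well as of the piece could be measured. All 4 groups shared the tumor model, a start volume of 150 to 300 mm3, an intraperitoneal and an intratumoral injection, and harvest at day 3, with 3 tumors in each. The vehicle group received DMSO in saline intraperitoneally and saline into the tumor. The ADU-S100 group received 50 μg of ADU-S100, an agonist of the innate DNA-sensing adaptor STING, in 1 injection of 40 μl into the tumor on day 1. The olaparib group received the PARP inhibitor olaparib every day for 3 days, at 50 mg/kg,. The combination group received both. Ages were not given in the sources used here. Treatments were compared to ask how the immune gene program of BRCA1-deficient tumors responds to each drug and to both.

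Endothelial cells line vessels and are joined by the adhesion molecules encoded by Pecam1 and Cdh5. They sense VEGF-A through the receptor encoded by Kdr and angiopoietins through the receptor encoded by Tek. VEGF-A is made largely by tumor and stromal cells, often under low oxygen, and drives sprouting and leakiness of blood vessels, while VEGF-C acts mainly on lymphatic endothelium. STING agonists injected into tumors are known to act on tumor vessels as well as on immune cells.

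ETS transcription factors are known regulators of endothelial genes, so the sequences just before the annotated start are shown for members that varied together and for both ligands. RefSeq promoter windows (GRCm38.p6) that begin at the annotated gene start were found for Eng, Cd34, Vegfa and Vegfc. The 250 bases before the start lie at chr2:32646345-32646594 on the plus strand for Eng and at chr1:194938571-194938820 on the plus strand for Cd34. Those of Vegfa lie at chr17:46032378-46032627 on the minus strand, and those of Vegfc at chr8:54077282-54077531 on the plus strand. Each reads 5′ to 3′ in the direction of transcription, and capitals mark the ETS core GGAAG on either strand (CTTCC on the other).
Eng: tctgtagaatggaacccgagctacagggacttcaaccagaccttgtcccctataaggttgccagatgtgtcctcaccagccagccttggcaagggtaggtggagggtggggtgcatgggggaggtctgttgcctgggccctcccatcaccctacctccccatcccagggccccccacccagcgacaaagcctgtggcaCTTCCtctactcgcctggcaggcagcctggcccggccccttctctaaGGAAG
Cd34: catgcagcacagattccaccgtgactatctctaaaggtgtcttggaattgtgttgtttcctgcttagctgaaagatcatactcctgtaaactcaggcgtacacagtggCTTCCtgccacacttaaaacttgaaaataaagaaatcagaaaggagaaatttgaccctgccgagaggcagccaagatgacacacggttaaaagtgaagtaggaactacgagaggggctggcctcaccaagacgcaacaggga
Vegfa: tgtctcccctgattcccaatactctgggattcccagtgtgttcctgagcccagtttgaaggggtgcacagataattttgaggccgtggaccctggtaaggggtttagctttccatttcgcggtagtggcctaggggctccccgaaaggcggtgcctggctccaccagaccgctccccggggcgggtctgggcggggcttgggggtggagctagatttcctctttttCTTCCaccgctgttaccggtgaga
Vegfc: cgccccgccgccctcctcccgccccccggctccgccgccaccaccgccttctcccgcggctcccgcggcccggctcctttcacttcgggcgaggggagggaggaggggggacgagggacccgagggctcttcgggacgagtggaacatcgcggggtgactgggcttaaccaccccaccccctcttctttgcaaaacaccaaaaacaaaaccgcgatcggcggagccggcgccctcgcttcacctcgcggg

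Eng held 2 ETS cores, Cd34 and Vegfa held 1 each and Vegfc held 0. The GATA core GATAA (both strands) was found once, in Vegfa, and the core of the hypoxia response element ACGTG (both strands) was found in none of these 4 windows. Another window of Vegfa, at a different annotated start and not printed, held 1 ACGTG. Of 32851 promoter windows of this length, 64.1% held GGAAG, 22.6% held GATAA and 16.6% held ACGTG, so an ETS core was common in any promoter. The share of G and C was 71.6% for Vegfc, 62.4% for Eng, 59.2% for Vegfa and 46.4% for Cd34. Pecam1, Cdh5 and Vwf had no entry, and the windows of Kdr and Tek belonged to another annotated start.

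Values are normalized counts of the nCounter assay, which counts color-coded probes bound to single mRNA molecules without amplification. The factor that scales each tumor ranged over 17.8-fold, and the probe counts recovered from the deposited values summed to between 106206 and 1519471 per tumor. Of the values in the table, 12 stood at the floor of 1, none of them in a member. The lowest recovered count of a member was 16, for Vegfc in olaparib tumor 1510. Probes differ in efficiency, so the level of one gene was not set against that of another. The tumors carry separate numbers in the labels and are taken as separate animals, which the labels do not state, and p-values measure the spread between these tumors. Numbers beginning with 12 mark vehicle tumor 1269 and combination tumors 1251 and 1270, and what the number means is not given.

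A set of 3 tumors stood apart in the endothelial genes, vehicle tumor 1529, ADU-S100 tumor 1506 and olaparib tumor 1517. All 7 endothelial genes had their 3 highest values in these 3 tumors, and the combination group held none of them. The mean of the 7 genes on the log2 scale was 10.6 in tumor 1529, 10.3 in tumor 1506 and 11.9 in tumor 1517, against 6.62 to 8.31 in the other 9 tumors. The lowest of the 3 exceeded the highest of the other 9 by 2.03 on the log2 scale, or 4.08-fold, while the other 9 together spanned 1.70, or 3.24-fold. The choice of these 3 tumors was made after their values were seen, and results are given below with and without them. Of all 689 genes, 124 (18%) had the same 3 highest tumors, Vegfc among them and Vegfa not.

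Other features moved with these tumors. Their scaling factors were 1.49, 2.85 and 10.5 in the order given, the first within and the others above the 0.589 to 1.96 of the other 9 tumors, and the recovered total of tumor 1517 was the lowest of the 12. The median log2 value of the genes kept was 8.12, 8.62 and 8.71 in them and 7.08 to 7.70 in the others. With every tumor set to the same median, 36 genes (5.22%) had these 3 tumors highest, and they included 6 of the 7 endothelial genes, all but Kdr, and not Vegfc. The endothelial mean exceeded the tumor's own median by 2.44, 1.72 and 3.22 in the 3 tumors and by -1.01 to 1.20 in the other 9. A list of 3 adipocyte genes (Cfd, Pparg and Cd36), chosen after seeing the values, had its summed count at 6793, 10183 and 43406 in the 3 tumors and at 70.1 to 2452 in the other 9. All 3 genes had the same 3 highest tumors. Cfd encodes the adipocyte protease adipsin, Pparg the regulator of fat cell differentiation, and Cd36 a fatty acid carrier that capillary endothelium also expresses. Combination tumor 1270 had the highest adipocyte sum of the other 9 tumors, with Cfd at 1841, and an endothelial mean of 7.86, the lowest of its group beside 7.91 and 8.15. The epithelial genes Epcam and Cdh1 summed to 13423, 11559 and 10343 in the 3 tumors and 10721 to 21597 in the others, so that tumor 1517 was the lowest of the 12. The part of scaling, fat pad tissue or tumor cell content in these values was not tested.

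**Figure D1:**
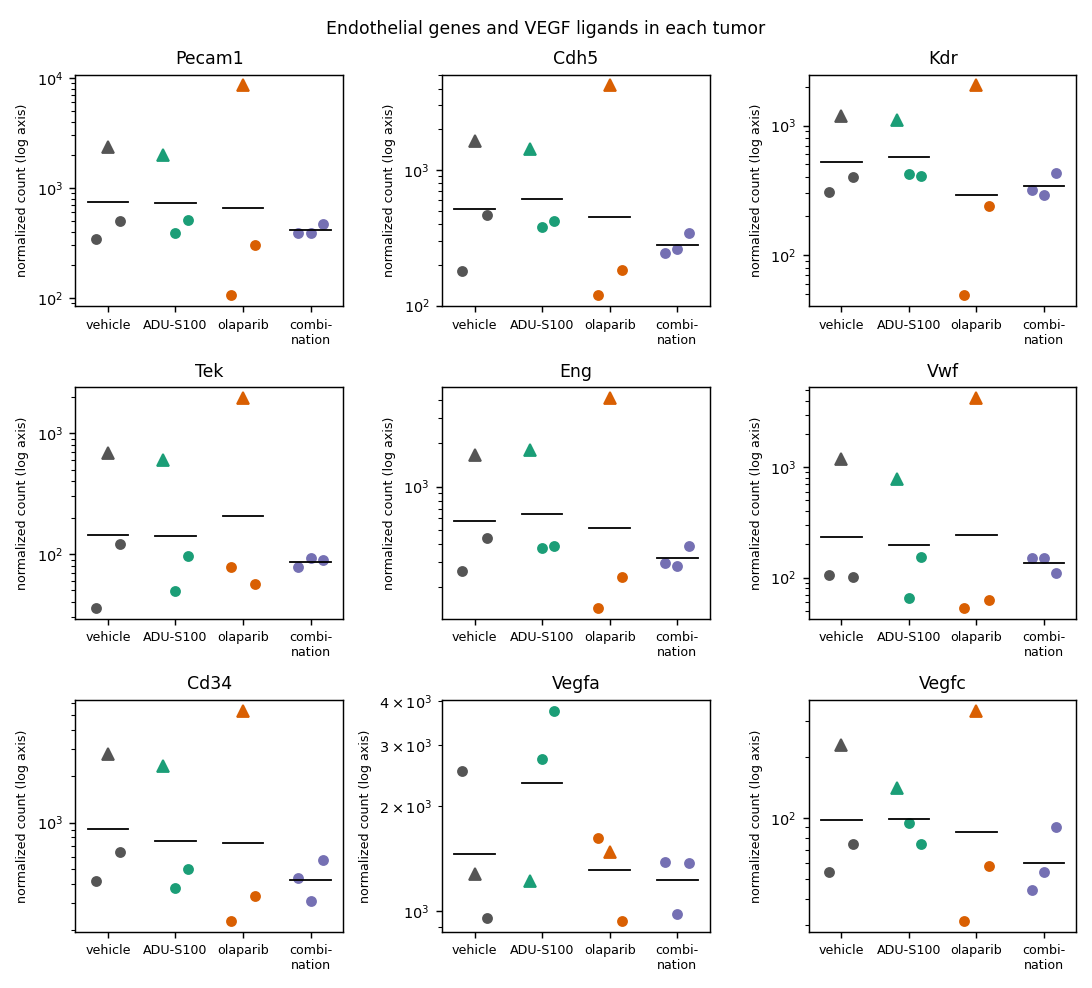
Normalized counts (log axis) of the 9 genes in each tumor, by treatment group, with 1 panel per gene. Points are tumors, triangles are tumors 1529, 1506 and 1517, and the line is the mean of log2 values turned back to counts. The triangles lead every panel except that of Vegfa, where they lie at 1225 to 1478 within the range of the other tumors.

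The junction genes came first. Pecam1, which encodes the adhesion molecule CD31 of endothelium, platelets and some leukocytes, read 346, 2359 and 500 in the vehicle tumors 1269, 1529 and 1536 and 1985, 389 and 507 in the ADU-S100 tumors 1506, 1512 and 1513. It read 105, 8625 and 300 in the olaparib tumors 1510, 1517 and 1521 and 388, 387 and 468 in the combination tumors 1251, 1270 and 1539. Each group but the combination thus held 1 tumor at least 3.92-fold above all of the other 9, and all 4 groups overlapped. Cdh5, which encodes VE-cadherin, the junction protein most restricted to endothelium, read 179, 1643 and 468 with vehicle and 1438, 377 and 418 with ADU-S100, in the same order of tumors. Its values with olaparib were 119, 4244 and 184, and with the combination 245, 260 and 341. The combination and ADU-S100 groups did not overlap in Cdh5, the combination being lower, and the other groups did.

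The receptors had the same 3 tumors highest. Kdr, the main signaling receptor of VEGF-A, was measured at 308, 1186 and 400 in vehicle tumors, 1094, 418 and 405 in ADU-S100 tumors, 48.7, 2054 and 238 in olaparib tumors and 320, 289 and 433 in combination tumors. Olaparib tumor 1510 had the lowest Kdr of the 12, on 25 recovered counts, and the highest was 42.2-fold above it. Tek, the angiopoietin receptor, was measured at 35.5, 693 and 121 with vehicle, 598, 49.1 and 95.6 with ADU-S100, 77.9, 1970 and 56.0 with olaparib and 77.8, 93.2 and 88.5 with the combination. Tek in the combination varied by no more than 1.20-fold, against 12.2-fold to 35.2-fold in the other groups. Eng, which encodes endoglin, the TGF-β co-receptor of proliferating endothelium that some stromal cells also carry, stood at 258, 1650 and 441 in the vehicle tumors, 1806, 375 and 387 with ADU-S100, 142, 4139 and 233 with olaparib and 293, 280 and 384 with the combination. Eng differed from the other endothelial genes only in that ADU-S100 tumor 1506 exceeded vehicle tumor 1529.

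Vwf and Cd34 complete the endothelial genes. Vwf, the clotting glycoprotein stored by endothelium and platelets, stood at 104, 1189 and 100 with vehicle, 775, 64.8 and 154 with ADU-S100, 52.6, 4244 and 63.1 with olaparib and 150, 150 and 109 with the combination. It had the widest gap of the members, with the lowest of the 3 tumors 5.03-fold above the next. Cd34, a surface sialomucin of endothelium and of some progenitor and stromal cells, stood at 414, 2786 and 641 with vehicle, 2350, 373 and 499 with ADU-S100, 228, 5355 and 332 with olaparib and 437, 307 and 573 with the combination. Groups overlapped in both genes in all 5 pairs of groups compared.

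The ligands differed from each other. Vegfa, which encodes VEGF-A, read 2518, 1280 and 957 in the vehicle tumors, 1225, 2727 and 3752 with ADU-S100, 1621, 1478 and 937 with olaparib and 1388, 984 and 1371 with the combination. Its 3 highest tumors were ADU-S100 tumors 1513 and 1512 and vehicle tumor 1269, and its whole range was 4.0-fold. The 3 tumors rich in endothelial genes sat in the middle of that range, at 1225 to 1478. Vegfc, which encodes the lymphatic growth factor VEGF-C, read 54.6, 227 and 74.8 with vehicle, 140, 94.3 and 74.2 with ADU-S100, 31.2, 335 and 58.3 with olaparib and 44.6, 54.4 and 90.2 with the combination. Vegfc had the same 3 highest tumors as the endothelial genes, with a gap of 1.48-fold between the lowest of them and the next tumor.

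On the log2(normalized count + 1) scale, the endothelial mean was 8.81 ± 1.56 with vehicle, 8.80 ± 1.35 with ADU-S100, 8.65 ± 2.87 with olaparib and 7.97 ± 0.16 with the combination (SD, n = 3 each). The SD of the olaparib group came from both ends, tumor 1517 being the highest and tumor 1510 the lowest of all 12. The combination had the lowest mean and the least spread, and its 3 tumors lay within the range of each other group. In bulk tissue, fewer endothelial cells and less RNA per endothelial cell cannot be told apart.

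The endothelial genes were among the most variable of the panel between tumors treated alike. The residual SD within groups on the log2 scale was 2.25 for Vwf, 2.0 for Tek and 1.92 for Pecam1, which ranked 13, 16 and 24 of 689 genes. It was 1.71 for Cdh5, 1.62 for both Eng and Cd34 and 1.51 for Kdr, the last at rank 49, against a median of 0.79 over all genes. Vegfc stood at 1.08 (rank 151) and Vegfa at 0.60 (rank 477), below the median. The share of the variance that lay between groups was 3.19% to 10.1% for the endothelial genes, 9.42% for Vegfc and 34.6% for Vegfa, against a median of 30.7% over all genes. These ranks and shares were not tested.

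**Figure D2:**
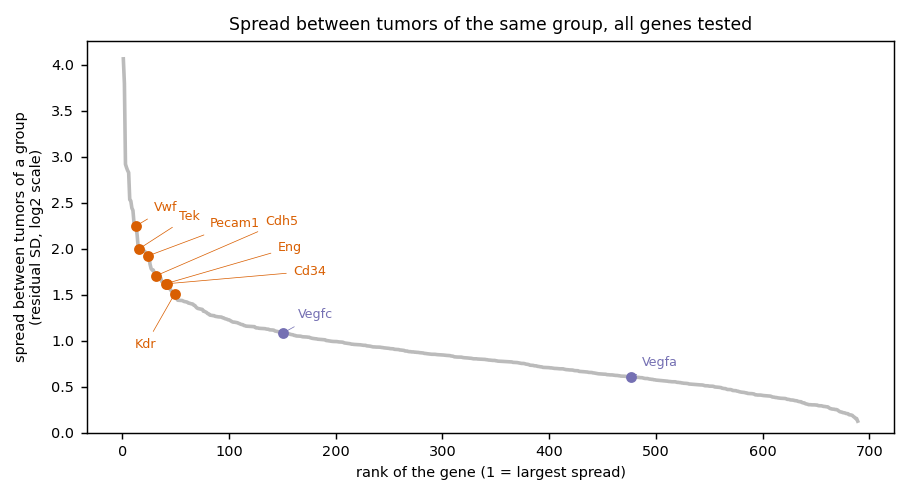
Residual SD between tumors of the same group on the log2 scale (y axis) against the rank of the gene (x axis), for the 689 genes tested. The 7 endothelial genes (orange) lie at ranks 13 to 49, Vegfc (purple) at 151 and Vegfa (purple) at 477.

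Against vehicle, the combination gave lower means for all 9 genes, and none passed the test. The log2 fold change was -0.84 (SE 1.35) for Pecam1, -0.89 (SE 1.21) for Cdh5, -0.62 (SE 1.08) for Kdr and -0.74 (SE 1.41) for Tek. It was -0.86 (SE 1.15) for Eng, -0.78 (SE 1.57) for Vwf and -1.09 (SE 1.15) for Cd34. Vegfa differed by -0.24 (SE 0.51) and Vegfc by -0.69 (SE 0.80). The median over the 7 endothelial genes was -0.84, beside 0.21 over all genes tested, of which 65.3% were higher. With each tumor set to the same median the median of all genes moved to 0.01, and all 9 genes were lower still, from -1.29 for Cd34 to -0.45 for Vegfa. Adjusted p-values of the members by limma ran from 0.962 to 0.989. The 95% interval of Cdh5 ran from -3.54 to 1.77 and that of Vegfa from -1.36 to 0.88, so changes of several-fold in either direction lay within the interval of Cdh5. By limma, 0 of 9 members and 0% of all genes passed an adjusted p of 0.05, and 0 of 9 members against 7.69% of all genes had an unadjusted p under 0.05. In 20% of all genes and 0 of 9 members the groups did not overlap.

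Leaving out vehicle tumor 1529 alone changed these values. Without it the endothelial fold changes ran from -0.28 for Cd34 to 0.39 for Tek and Vwf, and Pecam1 stood at -0.01. Vegfa then stood at -0.33, and at 0.16 without vehicle tumor 1269 in place of 1529. Of the 3 tumors whose number begins with 12 and not 15, 2 were in the combination and 1 was a vehicle tumor. With this number series as a block the combination against vehicle was -0.43 for Cdh5 and -0.52 for Pecam1.

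**Figure D3:**
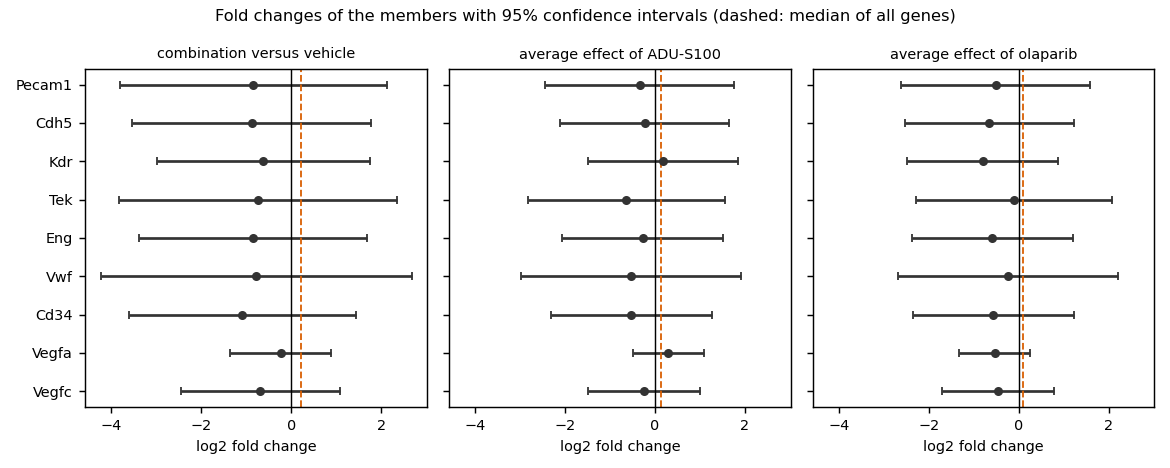
Log2 fold changes of the 9 genes by limma (x axis) with 95% confidence intervals, for the combination against vehicle and the average effects of ADU-S100 and of olaparib. The dashed line is the median of all genes tested, and every interval spans 0.

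The average effect of ADU-S100 compared the 6 tumors that received it with the 6 that did not, with olaparib balanced. Its log2 fold change was -0.34 (SE 0.96) for Pecam1, -0.23 (SE 0.86) for Cdh5, 0.18 (SE 0.76) for Kdr and -0.64 (SE 0.99) for Tek. For Eng it was -0.27 (SE 0.81), for Vwf -0.54 (SE 1.11) and for Cd34 -0.53 (SE 0.81). The ligands stood at 0.29 (SE 0.36) for Vegfa and -0.24 (SE 0.57) for Vegfc. The endothelial median was -0.34, beside 0.14 over all genes. Every member had an adjusted p of 0.999 by limma, with 0% of all genes called. No member and 3.05% of all genes had an unadjusted p under 0.05. Without olaparib tumor 1517 alone, 6 endothelial genes and Vegfc turned from lower to higher, with Cdh5 at 0.57 and Pecam1 at 0.60.

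The average effect of olaparib gave lower means for all 9 genes. The log2 fold change was -0.51 (SE 0.96) for Pecam1, -0.66 (SE 0.86) for Cdh5, -0.80 (SE 0.76) for Kdr and -0.10 (SE 0.99) for Tek. It came to -0.58 (SE 0.81) for Eng, -0.24 (SE 1.11) for Vwf and -0.56 (SE 0.81) for Cd34. Vegfa stood at -0.53 (SE 0.36), its 95% interval running from -1.32 to 0.26, and Vegfc at -0.45 (SE 0.57). The endothelial median was -0.56, beside 0.10 over all genes. The adjusted p-values by limma ran from 0.783 for Vegfa to 0.996, with 0% of all genes called. No member and 7.55% of all genes had an unadjusted p under 0.05. Single olaparib tumors moved these values. Without tumor 1517 the log2 fold change was -1.44 for Pecam1, -1.46 for Cdh5 and -1.51 for Kdr, and 5 of 9 members and 13.4% of all 658 genes had an unadjusted p under 0.05, with 0 passing after adjustment by limma. Without tumor 1510 Pecam1 stood at 0.15. The 7 fibroblast and matrix genes listed were also lower in the average effect of olaparib, with a median of -1.01. None passed, and 4 of 7 had an unadjusted p under 0.05, among them Fn1 at -1.67 (SE 0.52) and Col3a1 at -1.39 (SE 0.52). Their part in the values of the endothelial genes was not tested.

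The other comparisons shared their tumors with these and also called 0 of 9 members by limma, with 0% of all genes called in each. ADU-S100 against vehicle gave endothelial fold changes of -0.25 to 0.24 and Vegfa at 0.67 (adjusted p = 0.809). In that comparison 4.79% of all genes and 0 of 9 members had an unadjusted p under 0.05, and groups did not overlap in 14.9% of genes and 0 of 9 members. Olaparib against vehicle gave -0.86 for Kdr to 0.51 for Tek, with 7.26% of genes and 0 of 9 members under an unadjusted p of 0.05 and with 4.79% of genes and 0 of 9 members not overlapping. The combination against olaparib gave -1.25 for Tek to 0.24 for Kdr, with 7.26% of genes and 0 of 9 members under 0.05 and 12.8% of genes and 0 of 9 members not overlapping. The log2 factor of each tumor as a covariate moved these comparisons. Olaparib against vehicle was then lower in all 7 endothelial genes, from -2.27 for Vwf to -1.53 for Tek, and 5 of 9 members and 8.27% of all genes had an unadjusted p under 0.05. Their smallest adjusted p by limma was 0.567. ADU-S100 against vehicle ran from -2.23 for Vwf to -0.98 for Kdr, with 1 of 9 members and 6.39% of all genes under an unadjusted p of 0.05. The combination against olaparib turned to between 0.96 for Cd34 and 1.70 for Vwf, with 0 of 9 members and 12.9% of all genes under it.

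In the combination against ADU-S100 the endothelial fold changes ran from -1.13 for Cdh5 to -0.55 for Vwf, and with the log2 factor as a covariate from 0.47 for Kdr to 1.65 for Vwf. Cdh5 was the 1 member of 9 whose groups did not overlap, beside 31.3% of all genes, and its adjusted p was 0.722. Vegfa was at -0.91 (SE 0.51). Without the covariate, its p was the smallest of any member in the main fit of 12 tumors, 0.10 unadjusted and 0.548 adjusted by limma. No member and 9.14% of all genes had an unadjusted p under 0.05. The interaction, by which the response to ADU-S100 in olaparib-treated tumors exceeded that in tumors without olaparib, ran from -1.22 for Tek to 0.13 for Kdr among the endothelial genes. With the log2 factor as a covariate it ran from 2.33 for Eng to 3.92 for Vwf. Under an unadjusted p of 0.05 the interaction then had 1 of 9 members and 10.01% of all genes, with none passing. Without the covariate its intervals were wide, that of Kdr running from -3.21 to 3.47, and 10.9% of all genes and 0 of 9 members had an unadjusted p under 0.05.

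Without tumors 1529, 1506 and 1517, which left 9 tumors and 614 genes with 2 tumors in each group but the combination, 0 members passed in any comparison. Over all genes, 6 of 614 were then called for the average effect of olaparib, 2 of 614 for the combination against ADU-S100 and 0 in the other comparisons. The endothelial genes then stood close to vehicle in the combination, with a median of -0.04 beside 0.44 over all genes and with Tek and Vwf at 0.39 each. For the average effect of ADU-S100 all 7 were higher, with a median of 0.59 beside 0.31 over all genes and Kdr the highest at 0.94 (SE 0.45). For the average effect of olaparib 6 of 7 were lower, with a median of -0.58 beside 0.14 over all genes, Tek at 0.17 being the exception. The interaction of the endothelial genes, with a median of -0.63 and 1 of 7 higher over all 12 tumors, turned to a median of 0.88 with all 7 higher, beside -0.09 over all genes. Kdr stood at 1.43, Vwf at 1.25 and Pecam1 at 1.12, and 0 of 9 members and 7.49% of all genes had an unadjusted p under 0.05.

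The pairwise comparisons moved too without the 3 tumors. In the combination against ADU-S100 the endothelial median went from -0.82 to -0.10, with Cdh5 at -0.51, Tek at 0.33 and Vwf at 0.43. ADU-S100 against vehicle had an endothelial median of 0.09, beside 0.32 over all genes. Olaparib against vehicle went from a median of -0.19 to -0.90, and the combination against olaparib from -0.71 to 0.91 with all 7 higher. In these last comparisons 2 and 3 of 9 members had an unadjusted p under 0.05, beside 5.21% and 8.79% of all genes. The tumors left out were chosen by their values in the endothelial genes, so these counts carry no test.

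Within these 9 tumors the olaparib group consisted of tumors 1510 and 1521, the lowest pair of the 12 in the endothelial mean. Against olaparib, the combination was higher in all 7 endothelial genes, with a median of 0.91 beside 0.28 over all genes. Kdr at 1.65 (SE 0.60), Pecam1 at 1.21 (SE 0.48) and Vwf at 1.21 (SE 0.43) had unadjusted p-values under 0.05, beside 8.79% of all genes, and an adjusted p of 0.491 each by limma. Olaparib against vehicle gave Kdr at -1.69 (SE 0.66) and Pecam1 at -1.22 (SE 0.52), both with an adjusted p of 0.754, beside 5.21% of all genes under an unadjusted p of 0.05. The tumors left out were chosen by their values in these same endothelial genes. Their p-values and SEs here are therefore descriptions and carry no test. Vegfa fell short of the adjusted threshold in the combination against ADU-S100, at -1.38 (SE 0.49, adjusted p = 0.231), and in the average effect of olaparib, at -0.85 (SE 0.37, adjusted p = 0.318). Both had unadjusted p-values under 0.05, as did 16.1% and 14.7% of all genes.

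The endothelial genes were then set against the ligands within each tumor. The log2 value of Vegfa minus the endothelial mean does not depend on the scaling of a tumor, and as probes differ, only its change between tumors carries meaning. It was -0.23 in vehicle tumor 1529, -0.08 in ADU-S100 tumor 1506 and -1.40 in olaparib tumor 1517, the 3 lowest of the 12. The other 9 tumors lay between 1.59 in vehicle tumor 1536 and 4.05 in olaparib tumor 1510. Group means were 1.70 ± 2.0 with vehicle, 2.38 ± 2.13 with ADU-S100, 1.71 ± 2.81 with olaparib and 2.29 ± 0.22 with the combination (SD, n = 3 each), and all groups overlapped. For Vegfc the same difference was -2.72, -3.21 and -3.54 in the 3 tumors and -2.40 to -1.24 in the other 9, again the 3 lowest, by a smaller margin. These 3 tumors had the highest endothelial means, so a low difference there is in part fixed by that choice and carries no test. With each tumor set to the same median, neither Vegfa nor Vegfc had these tumors as its 3 highest.

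**Figure D4:**
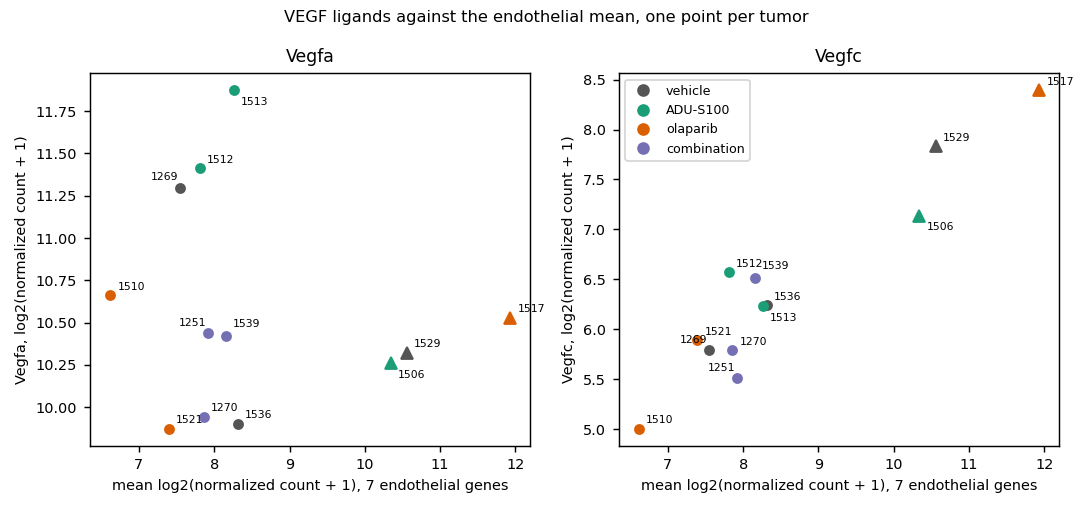
Log2(normalized count + 1) of Vegfa (left) and Vegfc (right) against the mean of the 7 endothelial genes on the same scale, 1 point per tumor with its number, colored by group, with triangles for tumors 1529, 1506 and 1517. The triangles lie to the right at middling Vegfa and at the 3 highest values of Vegfc.

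Because the 12 tumors fell into 2 clusters, correlations were taken within the 9 other tumors. All 36 pairs of members were computed, with Pearson and Spearman coefficients, exact permutation p-values and Benjamini-Hochberg adjustment over all pairs and both measures. Among the 21 endothelial pairs Pearson's r had a median of 0.68 and ran from 0.04 to 0.98, and 11 pairs passed an adjusted p of 0.05 by Pearson and 7 by both measures. Over all 237016 pairs of the 689 genes, which share the scaling of each tumor, the median r was 0.18 and 10.8% had an r at or above the endothelial median. With equal medians the endothelial median was 0.74, that of all pairs was 0.01 and 4.40% reached the endothelial one. The share of all pairs that would pass was not computed, so the counts of passing pairs are not read as particular to the members. Pecam1 and Eng were among the closest, with r = 0.94 and rho = 0.98 (adjusted exact permutation p = 0.00119 for each). Cdh5 and Eng gave r = 0.97 and rho = 0.95 (adjusted exact permutation p = 0.00119 and 0.00423). The 5 genes Pecam1, Cdh5, Kdr, Eng and Cd34 made up 10 of the 11 pairs that passed by Pearson. Tek passed with none, with r from 0.04 to 0.46, and Vwf with Pecam1 alone (r = 0.68, rho = 0.58, adjusted exact permutation p = 0.0450 and 0.222).

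The ligands again differed. Vegfc passed by Pearson with 4 of 7 endothelial genes, namely Eng, Cdh5, Kdr and Pecam1, with r of 0.79 to 0.88, and by both measures with Kdr (r = 0.84, rho = 0.82, adjusted exact permutation p = 0.0106 and 0.0352). Vegfa passed with 0 of 7, with r from -0.37 to 0.15, and its r with Vegfc was 0.21 (rho = 0.08, adjusted exact permutation p = 0.770 and 0.934). Without the 2 tumors farthest from the median of the first gene of a pair, 1 of 36 pairs passed by Pearson with 7 tumors. The coefficients themselves then ran from -0.05 to 0.96 over the 21 endothelial pairs, with Cdh5 and Eng at 0.96, Pecam1 and Eng at 0.92 and Vwf and Cd34 at the lower end. Taken as deviations from the group means, which removes differences between treatments, 9 passed. Deviations within a group depend on each other, which the permutation ignores, so that count carries no test. On that scale r of Vegfa with the endothelial genes ran from -0.80 for Cdh5 to 0.13 for Vwf, with a median of -0.50, and its r with Vegfc was -0.52. That the difference in correlation between the ligands exceeds its own error was not tested.

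**Figure D5:**
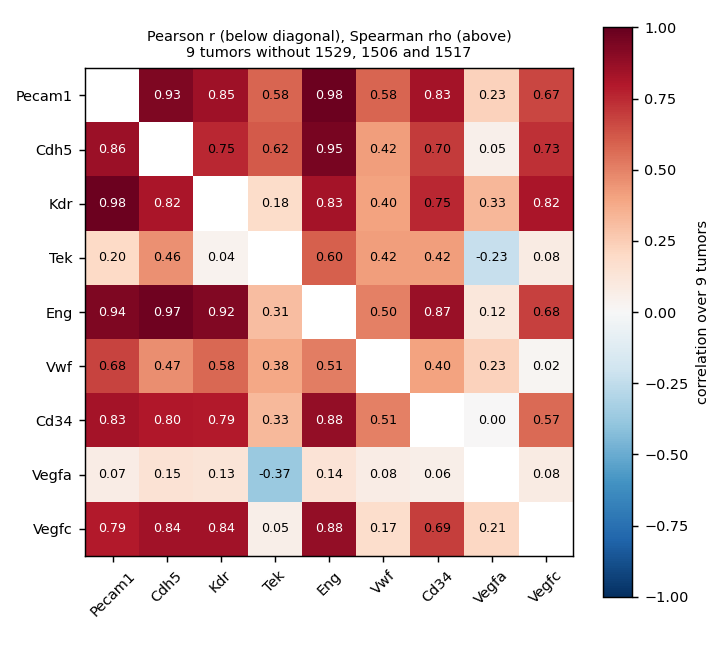
Correlation of each pair of members over 9 tumors, Pearson's r below the diagonal and Spearman's rho above it, on a color scale from -1 to 1. Pecam1, Cdh5, Kdr, Eng, Cd34 and Vegfc form the dark red cells, while those of Vegfa and most of those of Tek and Vwf are pale.

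By rank over the 12 tumors, the genes most like Cdh5 were Tie1 (rho = 0.99, and 0.97 over the 9 tumors), Mrc1 (0.98 and 0.97) and Eng (0.97 and 0.95). Tie1 is an endothelial co-receptor of Tek, and Mrc1 encodes the mannose receptor of macrophages and of some endothelial cells. Those most like Vegfa were Aire (0.88 and 0.92), Cdh1 (0.84 and 0.85) and Tab1 (0.83 and 0.93). Cdh1 encodes the epithelial junction protein E-cadherin, and Aire was measured on 14 to 209 recovered counts. These are descriptions over tumors that share the scaling step.

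Of 23 other endothelial genes listed, 6 were measured (Tie1, Mcam, Thbd, Jam3, Ets1 and Tal1), and all 6 had the same 3 highest tumors, beside 18% of all genes. With equal medians 3 of 6 did, Tie1, Thbd and Tal1, beside 5.22%. Tie1 read 152, 1191 and 329 with vehicle, 1091, 189 and 264 with ADU-S100, 81.8, 3332 and 134 with olaparib and 173, 187 and 260 with the combination. In the combination against vehicle 0 of 6 were higher, with a median of -0.83 and none passing, from Tie1 at -0.94 (SE 1.25) to Ets1, a transcription factor of endothelium and lymphocytes, at -0.38 (SE 0.40). The lymphatic genes Lyve1 and Ccl21a also shared the 3 tumors, where they summed to 624, 835 and 1520, against 10.6 to 108 in the other 9. Both are also found outside lymphatic vessels, Lyve1 on macrophages and Ccl21a in lymph node stroma, and in the combination against vehicle they gave -0.72 (SE 1.39) and -0.19 (SE 1.98).

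Of the genes listed for mural cells, which wrap small vessels, 3 were measured. Pdgfrb (also on the fibroblast list), Cspg4 and Mcam (also on the endothelial list) had the same 3 highest tumors, as did 18% of all genes with no test, and summed to 4298, 3734 and 4852 there and to 927 to 2116 in the other 9. With equal medians 0 of 3 did. Against vehicle the combination was lower in all 3, with a median of -1.14 and none passing, from Cspg4 at -1.56 (SE 0.85) to Mcam at -0.81 (SE 0.54). Of 7 fibroblast and matrix genes, 3 had those tumors highest, namely Pdgfrb, the fibroblast protease gene Fap and Col4a1, which encodes a collagen of the vessel basement membrane, and with equal medians 0 did. The list was lower in the combination in all 7, with a median of -1.14 and none passing, from Fn1, which encodes fibronectin, at -1.59 (SE 0.73) to the collagen gene Col3a1 at -0.90 (SE 0.74).

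Genes through which endothelium takes up leukocytes were mixed. Of 6 measured, Sele and Icam2 had the 3 tumors highest, 2 genes expressed by endothelium, beside 18% of all genes. Sele rested on 2 to 33 recovered counts. These reach down to the background of 3 to 7 counts, the median of the 30 lowest genes in each tumor. In the combination against vehicle 2 of 6 were higher with a median of -0.44, none passing. Vcam1, an adhesion molecule induced by inflammatory cytokines, was the highest at 1.11 (SE 0.61, adjusted p = 0.693), with 286, 318 and 322 in the combination against 132, 271 and 80.4 with vehicle, and did not overlap between these groups, as in 20% of all genes. Cd99, a molecule of leukocyte passage between endothelial cells that many other cells carry, was the lowest at -0.86 (SE 0.71). The 6 inflammatory cytokines tested that act on endothelium had higher means in 5, beside 65.3% of all genes, with a median of 0.85. None passed and 1 had an unadjusted p under 0.05, beside 7.69% of all genes. They ran from Tnf at 1.11 (SE 0.48) down to Il6 at -0.25 (SE 0.70). Of the 6, 1 had the 3 tumors highest, beside 18% of all genes, namely Il6 on 5 to 34 recovered counts.

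Other regulators of vessel growth did not follow the endothelial genes as a whole. Of 17 angiogenic ligands and regulators tested, 5 had the 3 tumors highest (Angpt1, Angpt2, Nrp1, Cxcl12 and Tgfb3), beside 18% of all genes, 1 with equal medians (Cxcl12), and 6 were higher in the combination against vehicle, with a median of -0.32 and none passing. Angpt1 and Angpt2 encode the ligands of the receptor of Tek. Angpt1 read 12.3, 63.9 and 24.2 with vehicle, 62.7, 19.6 and 12.8 with ADU-S100, 15.6, 157 and 10.02 with olaparib and 11.3, 28.03 and 30.3 with the combination. Nrp1, a co-receptor of VEGF-A, read 365, 1439 and 554 with vehicle, 946, 350 and 457 with ADU-S100, 50.7, 2725 and 283 with olaparib and 365, 342 and 505 with the combination. Tgfb2, which encodes a TGF-β ligand, was the highest at 0.45 (SE 0.70), and Ptgs2, the inducible prostaglandin synthase COX-2, the lowest at -1.32 (SE 0.91). Of 7 factors known to restrain vessel growth, 0 had the 3 tumors highest, and 5 were higher in the combination with a median of 1.79. They include the interferon-induced chemokines Cxcl9 at 3.13 (SE 0.84, adjusted p = 0.278) and Cxcl10 at 2.10 (SE 0.74, adjusted p = 0.438), with Thbs1, which encodes thrombospondin-1, the lowest at -1.09 (SE 0.54). These chemokines, Cxcl11 at 2.20 (SE 0.72) and Il12b at 1.79 (SE 0.53) were the 4 of 7 with an unadjusted p under 0.05, beside the 7.69% of all genes, and none passed after adjustment.

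Markers of other cells were checked beside the endothelial genes. Of 5 macrophage genes, 3 (Csf1r, Cd163 and Mrc1) had the 3 tumors highest, 0 with equal medians, and the 5 had sums of 5016, 4609 and 4391 there and 1394 to 3222 in the other 9, and in the combination against vehicle they ran from Mrc1 at -1.32 (SE 1.16) to Cd68 at 0.19 (SE 0.41). Of 3 general leukocyte genes, Cd53 had them highest, and the fold changes ran from Cd53 at -0.16 (SE 0.78) to Ptprc at 0.55 (SE 0.57). None of 5 T cell genes did, and these were higher in the combination in 5 of 5, from Cd3d at 0.98 (SE 0.83) to Cd3e at 1.75 (SE 0.64), none passing and 4 of 5 with an unadjusted p under 0.05, beside 7.69% of all genes. Platelets also carry the products of Vwf and Pecam1. Of the 3 platelet genes measured, 0 had the 3 tumors highest, and they ran from Itgb3 at -0.49 (SE 0.68) to Itga2b at 0.65 (SE 0.42). The epithelial genes Epcam at 0.47 (SE 0.51) and Cdh1 at 0.06 (SE 0.36) had 0 of 2. No listed marker stood at the floor in any tumor. Recovered counts fell to 4 for Cd8a, 5 for Cd3e and Cd3g and 8 for Cd53, near the background of 3 to 7 counts. The part of these cells in the endothelial values was not tested.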

How the data were processed

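RNA (100 ng) of each of 12 snap-frozen tumors, 3 per group by the sample labels, was measured on the nCounter PanCancer Immune Profiling Panel. The deposited values are a linear signal, namely normalized nCounter counts. The authors describe background correction in nSolver and normalization to positive controls and to housekeeping genes, by their geometric mean. They also state that counts below the negative controls were discarded, at a limit not given in the sources used here. The 30 lowest genes still had a median of 3 to 7 recovered counts per tumor. A subtracted background is therefore not evident in the deposited values. One factor scales each tumor, so a wrong factor moves all genes of that tumor together. Factors and probe counts were recovered by a search for the step of the low values and serve as a measure of depth only. By tumor, 99.87% to 100% of values above the floor were whole within 0.01. Taking the lowest value of a tumor as 1 count gave 17.1% to 32.8% of low values whole in 7 tumors, in which that value was the floor or stood for 2 counts in the search, and 100% in the other 5.

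Values were analysed as log2(normalized count + 1), for 689 genes with at least 20 in at least 3 tumors, so a fold change understates that of low genes. Limma 3.58.1 (R 4.3.3; lmFit, eBayes) fitted 1 mean per group, with two-sided tests, 95% intervals and Benjamini-Hochberg adjustment over all 689 genes at a threshold of 0.05. The procedure was tested on simulated data. Correlations within 9 tumors used exact permutation tests over all pairings (scipy 1.17.1), in place of the pooled relation over 12 tumors that had been planned, since the tumors fell into separate clusters. With 3 tumors against 3, an exact permutation test of 1 gene cannot go below 0.1.

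The members and gene lists were chosen with earlier results of these data known. The 9 members are named in every tumor, each list by its counts, its median and its genes with the highest and lowest fold change in the combination against vehicle, and the 3 genes most like Cdh5 and Vegfa by rank. The adipocyte genes, and other list genes named for their highest tumors, their p-value or their values by tumor, were named after values were seen. Alternatives varied pseudocount, filter, scaling, model, block, background and the tumors left out.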

Additional observations from a re-analysis of the deposited data

How the results depend on the processing

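The count of members called stayed at 0 in each comparison under every alternative run for it, all 8 comparisons but for fits on the compared groups alone and the methods' t-test, which cover the 5 pairwise ones. The list held no filter or a filter at 50, 10 as the pseudocount, fits on the compared groups alone, equal medians, quantile normalization, an intensity trend, the methods' t-test, the number series as a block, the log2 factor as a covariate, background subtraction, and leaving out single tumors or, an alternative chosen after seeing the data, tumors 1529, 1506 and 1517 together. Over all 689 genes, leaving out olaparib tumor 1521 called 55 for olaparib against vehicle, 54 for the combination against olaparib and 86 for the interaction, each 0 in the fit of all 12 tumors, and the other alternatives called at most 6 in any comparison. Of 612 fold changes of members under alternatives (27 results), 574 kept their direction and 38 reversed it, with adjusted p-values from 0.318 to 1.0. These cover the 9 members in the combination against vehicle and the 2 average effects only. Outside this count, the log2 factor as a covariate turned all 7 endothelial genes in the combination against ADU-S100, to between 0.47 for Kdr and 1.65 for Vwf. Without those 3 tumors together, the average effect of ADU-S100 reversed to 0.65 for Pecam1, 0.68 for Cdh5, 0.22 for Tek, 0.48 for Eng, 0.59 for Vwf, 0.19 for Cd34 and 0.44 for Vegfc, the combination against vehicle to 0.39 for Tek and 0.39 for Vwf, and the average effect of olaparib to 0.17 for Tek. With the number series as a block, the average effect of olaparib on Tek was 0.15. Leaving out 1 tumor at a time, the average effect of ADU-S100 ranged from -0.99 to 0.60 for Pecam1, -0.71 to 0.57 for Cdh5, -0.46 to 0.88 for Kdr, -1.15 to 0.18 for Tek, -0.74 to 0.48 for Eng, -1.08 to 0.49 for Vwf, -0.95 to 0.19 for Cd34 and -0.59 to 0.26 for Vegfc. The average effect of olaparib ranged from -1.44 to 0.15 for Pecam1, -0.91 to 0.46 for Tek and -1.27 to 0.34 for Vwf, and the combination against vehicle from -1.73 to 0.39 for Tek, -1.38 to 0.39 for Vwf and -0.54 to 0.16 for Vegfa. Taking the endothelial mean over Pecam1, Cdh5 and Kdr moved Vegfa minus the mean in the combination to 1.85 and Vegfc minus the mean to -2.48. The 15 pairs of members that passed by Pearson became 9 with deviations from group means, 1 without the 2 farthest tumors and 14 with the factor removed. The 9 carry no test, since deviations within a group depend on each other. The cause of these changes was not tested. The edgeR tests on recovered counts were planned and not run, since the low values of 7 tumors were not whole when the lowest was taken as 1 count. No paired analysis was possible because the groups compared share no tumor number. The number of tumors limited the precision.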
